A study of Gallus gallus with 8 samples.

Results

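Accessible sites of chicken cells grown in culture were set against those of red blood cells taken from the circulation. The 4 deposited peak lists were merged wherever peaks overlapped by at least 1 bp, which gave 31360 union regions. A region was placed by the lists that hold a peak in it: 14814 regions (47.2%) had a peak in cultured cells and in neither red cell list, 7294 (23.3%) had a peak in red cells and in neither cultured list, and 9252 (29.5%) had peaks on both sides. These are called culture-only, circulating-only and two-sided regions here. A region missing from a list had no listed peak there, which does not show that the DNA was closed.

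The cultured side was primary fibroblasts and HD3 erythroblasts, an established line of transformed red cell precursors, both kept in DMEM with fetal bovine and chicken serum. The circulating side was embryonic red blood cells (eRBC, embryonic day 10) and those of hens at 28 to 38 weeks of age (aRBC). All 8 samples, 2 of each cell type, were wild type, and ATAC-seq was run on nuclei of 150000 cells with 30 min of Tn5 and 10 PCR cycles. Each cell type has 1 list, with its 2 samples not shown apart, and the digit in its peak names (1 for fibroblasts, 2 for the others) may mean that it rests on a single sample, which is not stated. So no value below has a replicate error and no difference was tested between conditions. The intervals given are 95% Wilson intervals for counting error alone, and neighbouring regions are not independent. Read depth behind the lists is not known. The sides differ in more than culture: fibroblasts are of another lineage and HD3 is 1 transformed line. Growth in serum and red cell maturity cannot be told apart from side. Nor can age, although the circulating side holds embryos and adults, or sex, which is given for aRBC alone (hens).

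ATAC-seq reads open DNA, because the Tn5 transposase inserts adapters where nucleosomes and other proteins leave room. Birds keep the nucleus of the mature red cell, and as these cells mature their chromatin condenses, the linker histone H5 accumulates and transcription falls to a low level. The chicken genome has a few large chromosomes and many small microchromosomes, which are known to be rich in genes and in G and C. Neither division nor transcription is measured in the lists. The lists carry no gene names, so the cell types could not be checked against marker genes.

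The culture-only side was mostly made of sites seen in 1 of its cell types. Fibroblasts alone held 10148 of its regions (68.5%), HD3 erythroblasts alone held 3737 (25.2%), and 929 regions (6.27%, interval 5.89% to 6.67%) had a peak in both cultured cell types and no red cell peak. The fibroblast list was the longest, with 17681 peaks against 11763 in HD3, 12558 in eRBC and 11395 in aRBC. Its median fold enrichment over background was the lowest, at 4.74 against 8.45, 7.64 and 6.69 in the same order. On the circulating side, 3076 regions (42.2%) were held by eRBC alone, 2746 (37.6%) by aRBC alone and 1472 (20.2%, interval 19.3% to 21.1%) by both. The share of one-sided regions found in both lists of the side was thus 13.9 percentage points higher on the circulating side, and 26.5 points higher when only peaks with a −log10 q of at least 10 were kept. With two-sided regions included, 4918 of 24066 regions with a cultured cell peak and 6977 of 16546 with a red cell peak were in both lists. The direction was therefore not particular to one-sided regions. The cultured pair joins a connective tissue cell and an erythroid line, while the circulating pair is 1 lineage at 2 ages.

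**Figure D1:**
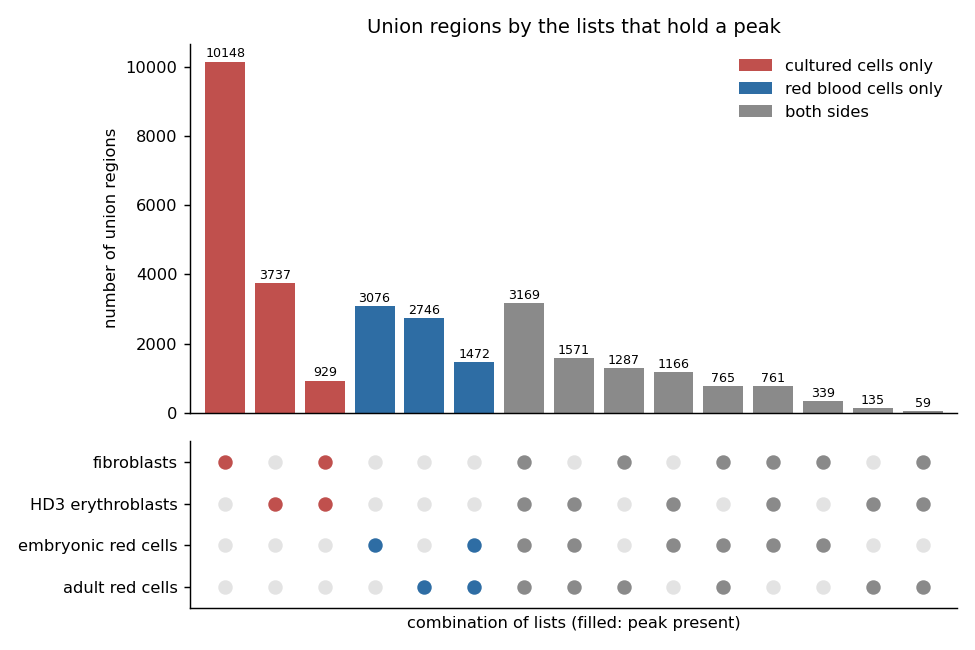
Number of union regions (vertical axis) for each combination of the 4 peak lists, with filled points below each bar marking the lists that hold a peak. Fibroblasts alone make the tallest bar at 10148 regions, and the combination of all 4 lists follows HD3 alone at 3169.

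The larger number of culture-only regions was not kept in each setting. Culture-only regions were 67.0% of one-sided regions (interval 66.4% to 67.6%). Without the fibroblast list they were 32.4%, with 4674 culture-only regions that rest on HD3 alone against 9736 circulating-only regions. Without HD3 they were 52.1%. Leaving out a cultured list lowers this share by the rule. It removes culture-only regions and turns some two-sided regions into circulating-only regions. With lists of equal length the share was 58.6%. With a −log10 q of at least 10 in every list they were 45.7%, with 5482 culture-only, 6501 circulating-only and 5243 two-sided regions. The direction of the difference in number therefore depended on the threshold, and leaving out a list cannot test it.

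Among the two-sided regions, 3169 (34.3%) had a peak in all 4 lists, 34.1% in 3 lists and 31.6% in 2. Both red cell lists were present in 59.5% of them and both cultured lists in 43.1%. An eRBC peak was present in 84.0%, an aRBC peak in 75.5%, an HD3 peak in 74.2% and a fibroblast peak in 69.0%. HD3 with both red cell lists and no fibroblast peak, the fully erythroid combination, accounted for 1571 regions. The pairs of 1 cultured and 1 red cell list were uneven: fibroblasts with aRBC held 1287 regions and HD3 with eRBC 1166, whereas fibroblasts with eRBC held 339 and HD3 with aRBC 135.

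Sites shared within a side were usually present on the other side too. Of the 4918 regions with a peak in both fibroblasts and HD3, 81.1% also had a red cell peak, compared with 27.5% of the 19148 regions with 1 of the cultured lists. Of the 6977 regions with a peak in both eRBC and aRBC, 78.9% also had a cultured cell peak, compared with 39.2% of the 9569 regions with 1 red cell list. Taken from each side as a whole, 38.4% of 24066 regions with a cultured cell peak and 55.9% of 16546 regions with a red cell peak were two-sided.

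Few regions lay near the 1 bp overlap boundary of the classification. The largest overlap between a cultured and a red cell peak had a median of 169 bp, and it was at most 20 bp in 24 two-sided regions (0.259%). On the other side of that boundary, 24 culture-only regions (0.162%) and 24 circulating-only regions (0.329%) lay within 20 bp of a region holding a peak of the other side. The significance threshold of the lists also sets the side and mattered more. With a −log10 q of at least 10, 5243 regions were two-sided in place of 9252.

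The sides differed in the chromosomes they occupied. Of all 31360 regions, 9581 lay on chromosomes 11 to 33 and 14741 on chromosomes 1 to 5. On the small chromosomes 11 to 33 lay 39.3% of circulating-only regions (interval 38.2% to 40.4%), 35.6% of two-sided regions and 23.1% of culture-only regions (interval 22.4% to 23.8%). The large chromosomes 1 to 5 held 39.3%, 43.7% and 52.9% of them in the same order, and chromosomes 6 to 10 held 13.7%, 14.5% and 14.0%. The difference of 16.2 percentage points on chromosomes 11 to 33 had the same direction in each of the alternatives run, from 12.6 points without the aRBC list to 22.4 points without the fibroblast list. Over the 9 alternatives that change the lists or intervals, the circulating-only share stayed between 34.4% and 41.8% and the culture-only share between 18.3% and 25.7%.

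The same order held when each combination of lists was taken alone. Regions in both cultured cell types and no red cell had 14.0% on chromosomes 11 to 33, HD3 alone had 19.6% and fibroblasts alone 25.2%. Regions of eRBC alone had 35.2% there, those of aRBC alone 40.8% and those of both red cell types 45.1%. No cultured combination reached the lowest red cell one. The two-sided combinations ranged more widely, from 16.4% for both cultured types with eRBC to 52.9% for fibroblasts with aRBC, and regions of all 4 lists had 31.2%.

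Expressed per length of chromosome up to its last listed peak, each kind of region was denser on the small chromosomes, culture-only regions least so. Chromosomes 1 to 5 carried 12.9 culture-only and 4.71 circulating-only regions per Mb. Chromosomes 11 to 33 carried 16.9 and 14.2 per Mb. Two-sided regions had 6.63 per Mb on chromosomes 1 to 5 and 16.3 on chromosomes 11 to 33. The density on the small chromosomes was thus 1.31 times that on the large ones for culture-only regions. It was 3.01 times for circulating-only regions and 2.46 times for two-sided regions. All regions together numbered 14741 over 609 Mb of chromosomes 1 to 5 and 9581 over 202 Mb of chromosomes 11 to 33.

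Single chromosomes followed their size. Over 32 autosomes, Spearman's rho between the last peak end and the share of regions on the chromosome was 0.894 for culture-only, −0.809 for circulating-only and −0.771 for two-sided regions. The 3 shares of a chromosome add up to its whole and all chromosomes come from the same 4 lists, so these values are a description. On chromosome 2, 55.7% of regions were culture-only and 18.8% circulating-only. On chromosome 28 the values were 19.6% and 40.5%, on chromosome 25 they were 21.5% and 42.1%, and on chromosome 22 they were 25.4% and 41.3%. Circulating-only regions outnumbered culture-only regions on 11 of 32 autosomes, and on none of chromosomes 1 to 13. Small size did not always go with this: chromosomes 24, 27 and 33 had 46.2%, 44.5% and 40.7% culture-only regions. Where 100 kb stretches with 10 or more peaks of a list were left out (295 dense windows), chromosome 24 had 50.8% culture-only and 16.6% circulating-only regions, but chromosome 27 had 31.1% and 34.9% and chromosome 33 had 20.6% and 33.2%.

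**Figure D2:**
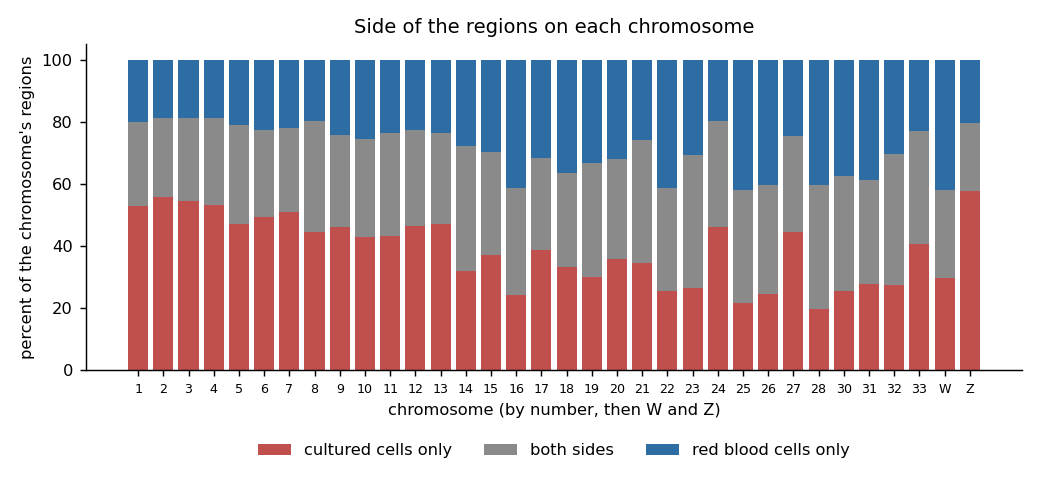
Percent of each chromosome's regions (vertical axis) that were culture-only, two-sided or circulating-only, with chromosomes by number and then W and Z. The circulating-only part is 18.8% on chromosome 2 and 40.5% on chromosome 28. Among chromosomes 14 to 33 it is lowest on 24 (19.7%), 33 (23.0%), 27 (24.7%) and 21 (25.9%). Without the dense windows it is 34.9% on chromosome 27 and 33.2% on chromosome 33, but 16.6% on chromosome 24 and 25.9% on chromosome 21.

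Circulating-only regions also took a larger share near the ends of the large chromosomes. On chromosomes 1 to 5, circulating-only regions were 39.3% of the 565 regions less than 1 Mb from an end, 26.5% between 1 and 2 Mb, 21.6% between 2 and 5 Mb, 14.3% between 5 and 10 Mb and 18.7% further in. Culture-only regions took the opposite course, from 30.8% in the outermost 1 Mb to 57.0% between 5 and 10 Mb. With the dense windows left out, the circulating-only share in the outermost 1 Mb was 35.9%, against 18.3% over 10 Mb from an end. Without the aRBC list the difference between these distances fell from 20.5 to 11.7 points, and without the fibroblast list it was 28.7 points. On chromosomes 6 to 10 the circulating-only share fell from 31.2% in the outermost 1 Mb to 18.0% between 2 and 5 Mb. Further in it rose again, to 21.2% between 5 and 10 Mb and 23.2% over 10 Mb from an end. Chromosomes 11 to 33, which are short, showed 30.3%, 32.4% and 30.5% over the first 3 distances and 23.8% between 5 and 10 Mb. Without the dense windows these became 35.0%, 35.8%, 30.0% and 23.8%, and in the outermost 1 Mb circulating-only regions then outnumbered culture-only regions, which went from 33.3% to 28.4%.

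**Figure D3:**
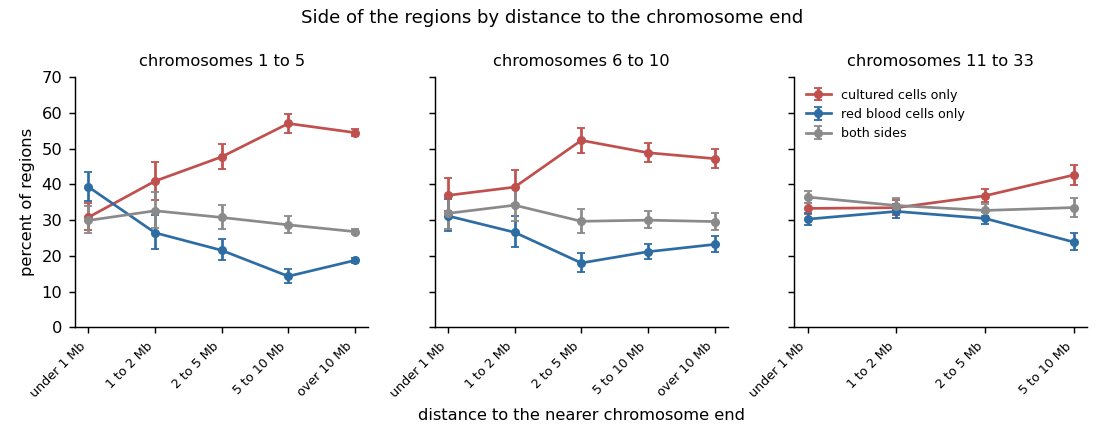
Percent of regions on each side (vertical axis) by distance to the nearer chromosome end, in 3 classes of chromosome, with bars for 95% Wilson intervals and only points with at least 50 regions. On chromosomes 1 to 5 the circulating-only share falls from 39.3% in the outermost 1 Mb to 14.3% between 5 and 10 Mb while the culture-only share rises to 57.0%.

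On the sex chromosome Z the lists differed within each side as well as between sides. Z held 9.89% of culture-only, 7.14% of circulating-only and 5.96% of two-sided regions. Of the regions of fibroblasts alone 13.6% lay on Z, of eRBC alone 8.42%, of aRBC alone 7.65% and of HD3 alone 1.66%. The highest share was 25.4%, for fibroblasts with eRBC. Among combinations with HD3 the highest was 4.73%, for both cultured types with eRBC. The higher culture-only share was not stable. With the dense windows left out the difference of 2.75 points became −1.45, from 4.83% of culture-only and 6.28% of circulating-only regions. Without the fibroblast list it was −6.78. The sex of the embryos, the fibroblasts and the HD3 line is not given in the sources used here, and hens carry a single Z. On W there were 26 culture-only, 37 circulating-only and 25 two-sided regions. Of the 37, 31 were of aRBC alone, 2 of eRBC alone and 4 of both. Of the 26, 16 were of HD3 alone and 10 of fibroblasts alone. The counts on W thus rest mostly on 1 list of each side, and the aRBC are of hens.

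Culture-only regions were isolated and circulating-only regions lay close to others. The median gap from a region to the nearest other region of any side was 6984 bp for culture-only, 1544 bp for circulating-only and 2844 bp for two-sided regions. Within 1000 bp of another region lay 19.8% of culture-only, 43.6% of circulating-only and 37.9% of two-sided regions. Within 10000 bp the shares were 57.9%, 81.7% and 72.6%. The ratio of the culture-only to the circulating-only median was 4.52. It was 2.02 when peaks up to 500 bp apart were merged, so close neighbours carry much of it, and 9.64 without the fibroblast list.

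**Figure D4:**
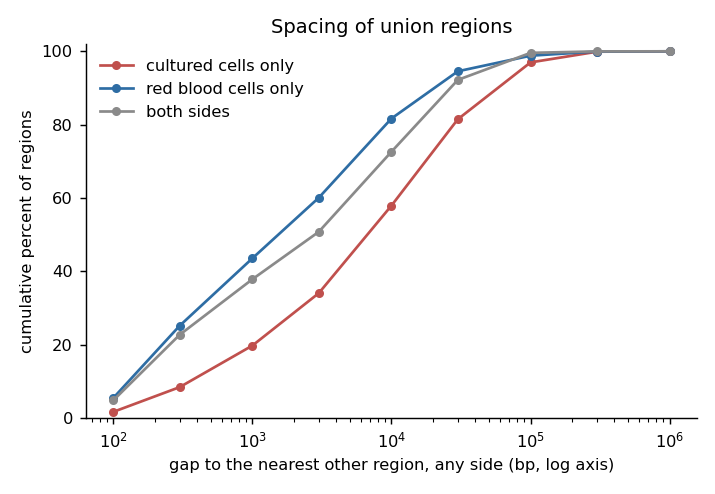
Cumulative percent of regions (vertical axis) whose nearest other region of any side lies within the gap on the horizontal log axis, in bp. At 1000 bp the culture-only curve stands at 19.8% and the circulating-only curve at 43.6%, with two-sided regions at 37.9%.

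The difference in spacing was present in each size class of the autosomes. On chromosomes 1 to 5 the median gaps were 9780.5 bp for culture-only, 1857 bp for circulating-only and 3250 bp for two-sided regions. On chromosomes 6 to 10 they were 9020, 1063 and 3322 bp, and on chromosomes 11 to 33 they were 3600.5, 1478 and 2356 bp. On Z the medians were nearer to each other, at 2820, 1927 and 2160 bp. Among the combinations, regions of both cultured cell types were the most isolated at 12244 bp, followed by HD3 alone at 10576 bp and fibroblasts alone at 5563.5 bp. Regions of aRBC alone had 1762.5 bp, those of eRBC alone 1635.5 bp and those of both red cell types 1142 bp. Within a side, then, regions in both lists were more isolated in culture and closer to others in red cells.

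Neighbours tended to be of the same side. The nearest region of a culture-only region was culture-only in 65.9%, where 47.2% of all regions are. The nearest region of a circulating-only region was circulating-only in 42.4%, where 23.3% of all are, and two-sided in 36.8%, where 29.5% of all are. A two-sided region lay within 1000 bp of 21.1% of circulating-only regions and of 6.16% of culture-only regions. Outside the dense windows these values were 20.2% and 4.07%. From a culture-only region the median distance to the nearest two-sided region was 40424 bp, against 9575 bp from a circulating-only region.

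Longer stretches of regions of the same side were also counted. Runs of at least 10 neighbouring regions of the same side numbered 231 for culture-only regions, with a median span of 531 kb and 142.4 Mb of span in all. They held 3126 regions, 21.1% of that side. Circulating-only runs numbered 10, with a median span of 61.8 kb, and 3 of them lay outside the dense windows. A side with more regions can form more runs, and the number to be had from the shares of the sides alone was not computed. The numbers of runs moved with the lists used. When peaks below a −log10 q of 10 were dropped, the runs numbered 39 from 5482 culture-only regions and 37 from 6501 circulating-only regions, and with lists of equal length they numbered 116 and 18. Without the HD3 list they numbered 128 from 11092 culture-only regions and 46 from 10190 circulating-only regions, and without the fibroblast list 18 from 4674 and 135 from 9736.

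The culture-only run with the most regions, chr1:10379977-12452459, held 39 over 2072 kb with no red cell peak between them. Of these, 25 were of fibroblasts alone, 10 of HD3 alone and 4 of both. The next by number of regions, chr9:13441794-14910499, held 30 regions over 1469 kb. The largest span of a culture-only run was 2479 kb. The circulating-only run with the most regions, chrZ:27325417-27363685, was of another kind. Its 21 regions within 38.3 kb were all of aRBC alone and all in dense windows. The circulating-only run with the largest span, chr25:1291607-1408059, lay outside dense windows, with 10 regions over 116 kb. Of 1067 windows of 1 Mb with any region, 32 had cultured cell peaks and no red cell peak and 2 had the reverse. Regions with a cultured cell peak were also the more numerous, at 24066 against 16546 with a red cell peak, and window counts depend on these numbers. In the 540 windows of chromosomes 1 to 5 with at least 10 regions, culture-only regions were the more numerous in 483 and circulating-only regions in 46. In the 205 such windows of chromosomes 11 to 33 the counts were 108 and 86.

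The rank of a peak within its own list separated the sides differently in cultured and circulating cells. Peaks were ranked by the deposited fold enrichment, which is the authors' value for a single peak, and placed on a percentile from 0 for the weakest to 100 for the strongest of the list. In eRBC the median percentile was 28.5 for peaks of circulating-only regions and 63.6 for peaks of two-sided regions. In aRBC the medians were 31.7 and 62.8. In fibroblasts they were 43.5 for culture-only and 63.6 for two-sided regions, and in HD3 they were 46.5 and 52.2.

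Each list was divided by rank into 10 groups of about equal size, and the red cell lists were the steepest. Of the weakest group of eRBC peaks 27.9% lay in two-sided regions (interval 25.5% to 30.5%), and of the strongest group 95.5% (interval 94.2% to 96.5%). In aRBC the share went from 40.2% to 95.9%. Fibroblasts started at 31.3%, passed a lowest value of 25.6% in the third group, and reached 71.5% in the strongest. In HD3 the share was 56.5% in the weakest group, 65.3% at its highest in the seventh and 60.2% in the strongest. The strongest red cell sites were therefore nearly all shared with a cultured cell type, whereas a larger part of the strongest fibroblast and HD3 sites had no red cell peak. The directions are not alike, as 24066 regions held a cultured cell peak and 16546 a red cell peak. Red cell peaks were also wider, which makes overlap easier. The median peak width was 229 bp in eRBC and 199 bp in aRBC, against 141 bp in fibroblasts and 171 bp in HD3. Over whole lists, 63.6% of eRBC, 62.8% of aRBC, 60.3% of HD3 and 37.3% of fibroblast peaks lay in two-sided regions. The strongest HD3 group was thus near the share of its whole list, while the strongest fibroblast group was well above its own. In HD3 the median difference was small and changed sign, from 5.67 percentile points to −1.56, once peaks with a −log10 q under 10 were left out.

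**Figure D5:**
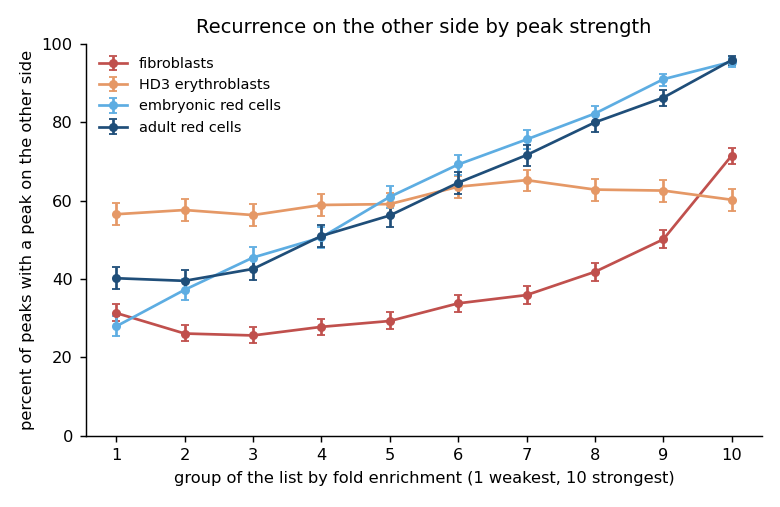
Percent of peaks that lie in two-sided regions (vertical axis) by 10 groups of fold enrichment, weakest to strongest, for each of the 4 lists, with 95% Wilson intervals. Both red cell lists rise above 95% in the strongest group, fibroblasts reach 71.5%, and HD3 stays between 56.3% and 65.3%.

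Peaks found in all 4 lists had the highest median percentile in each list. In eRBC the median percentile was 24.4 for peaks with no other list, 38.4 with aRBC, 58.0 with aRBC and 1 cultured list and 81.3 with all others. In aRBC the same steps gave 26.2, 44.4, 57.5 and 79.8. In fibroblasts the steps were 42.0 alone, 60.9 with HD3, 65.4 with HD3 and 1 red cell list and 72.9 with all. Fibroblast peaks shared with red cells but not with HD3 had 36.9 with eRBC, 55.5 with aRBC and 49.8 with both. In HD3 they were 44.3, 55.9, 59.1 and 65.9. HD3 peaks shared with red cells but not with fibroblasts had 36.1 for 1 red cell list and 38.8 for both, below HD3 peaks found nowhere else.

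Distances between summits in shared regions are limited by the rule, because peaks were joined by overlap, directly or through another peak. No distance to be had from overlap alone was computed, so the values are a description. The median distance between summits was 36 bp for fibroblasts with eRBC, 28 bp for fibroblasts with aRBC, 31 bp for HD3 with eRBC and 33 bp for HD3 with aRBC. Within the sides it was 38 bp for fibroblasts with HD3 and 25 bp for eRBC with aRBC. Spearman's rho of the percentiles across shared regions, a description over regions that are not independent, lay between 0.382 and 0.466 for the 4 pairs across sides, at 0.354 for the cultured pair and at 0.609 for the red cell pair. In 405 regions the best cultured percentile was more than 50 points above the best red cell percentile, and in 611 the reverse held. Of 2609 regions in the top 10% of a cultured list and 1788 in the top 10% of a red cell list, 766 were in both.

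Red cell peaks were mostly wider than cultured cell peaks at the same region, as they were over whole lists. The eRBC peak was the wider in 79.96% of regions shared with fibroblasts and 81.5% of those shared with HD3, and the aRBC peak in 72.7% and 72.6%. Lists of the same side differed too. The HD3 peak was wider than the fibroblast peak in 61.5% of shared regions, and the aRBC peak wider than the eRBC peak in 35.2%. Whole lists had median peak widths of 141 bp (fibroblasts), 171 bp (HD3), 229 bp (eRBC) and 199 bp (aRBC). Union regions had a median width of 137 bp (quartiles 106 and 189) when culture-only, 162 bp (118 and 236) when circulating-only and 302 bp (216 and 422) when two-sided. Regions of 1 list alone had medians of 129 bp in fibroblasts, 149 bp in HD3, 156 bp in eRBC and 136 bp in aRBC. The order of the sides thus did not hold for each list. Two-sided regions join peaks of several lists, so widths are better compared per list. One-sided and two-sided peaks had medians of 130 and 170 bp in fibroblasts, 151 and 186 bp in HD3, 169 and 273 bp in eRBC and 149 and 237 bp in aRBC. Width goes with strength. Within the strongest 25% of each list one-sided peaks were also the narrower, with strength not matched further. Their medians and those of two-sided peaks were 180 and 226 bp in fibroblasts and 206 and 264 bp in HD3. In eRBC they were 289.5 and 350 bp, and in aRBC 251 and 307 bp. A wider peak overlaps others more readily, so width takes part in placing a peak and these values are a description. Two-sided regions were 29.5% of all regions and 45.8% of the covered bases.

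The strongest regions of both cultured cell types with no red cell peak were distant from any red cell site. They were ordered by the worse of their ranks in fold enrichment, so that a region must be strong in both lists. First was chr1:172776068-172776339, at rank 178 in fibroblasts (fold enrichment 12.3) and rank 115 in HD3 (fold 23.4), with 129984 bp to the nearest region holding a red cell peak. Next came chr1:152265794-152266085 at ranks 195 and 30, and chr4:20813779-20814032 at ranks 281 and 24. They were followed by chr14:5947012-5947306 at ranks 472 and 107, and chr4:20913816-20914358 at ranks 522 and 291. The distance to the nearest red cell site was at least 63462 bp in these 5 regions, and none of them was in a dense window. Over all culture-only regions the median gap was 40424 bp to a two-sided region and 73215 bp to a circulating-only region.

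The strongest regions of both red cell types with no cultured cell peak lay 131 to 42952 bp from the other side. First was chr16:1166630-1166733, at rank 336 in eRBC (fold 18.2) and rank 64 in aRBC (fold 31.2), with 17072 bp to the nearest region holding a cultured cell peak. It was followed by chr3:27366034-27366479 at ranks 408 and 509, and chr7:11393875-11394150 at ranks 545 and 360. The last of these lay 131 bp from a region holding a cultured cell peak. The fourth and the fifth were chr4:18055738-18056257 at ranks 622 and 707, and chr3:23095156-23095443 at ranks 819 and 651. Over all circulating-only regions the median gap was 9575 bp to a two-sided region and 21988.5 bp to a culture-only region. Regions holding a cultured cell peak were also more numerous, at 24066 against 16546 with a red cell peak. Among single lists, the strongest aRBC region with no other peak was chrZ:27126001-27126199 at rank 17, in a dense window, and the strongest of eRBC was chr3:96812775-96813150 at rank 94. HD3 had chr1:142908112-142908431 at rank 12 and fibroblasts had chr27:274553-274673 at rank 19, also in a dense window.

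The pairs of 1 cultured and 1 red cell list differed in their leading regions. For fibroblasts with aRBC it was chr20:516502-516599, at rank 5 and rank 9, near the top of both lists and unlisted in HD3 and eRBC. For HD3 with eRBC it was chr19:33976-34201, at ranks 56 and 14. For fibroblasts with eRBC it was chr12:3678936-3679057, at ranks 583 and 1698, and for HD3 with aRBC it was chr1:168042026-168042255, at ranks 1097 and 2850. The two-sided combinations with fibroblasts and without HD3 had short median gaps to the nearest region, at 753 bp with aRBC, 717 bp with both red cell types and 1023 bp with eRBC, against 4792 bp for regions of all 4 lists.

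The lists may not have been made alike. Peak names of fibroblasts, eRBC and aRBC hold the word CLEANED, while those of HD3 hold the caller's name macs2, and per the labels 1 aRBC sample had a sequencing lane on another instrument. The part of these differences in the contrasts between sides was not tested. Leaving out each list in turn kept the direction of the contrasts on chromosomes 11 to 33, in spacing and in region width in each case. By single list the width order was not kept, as regions of aRBC alone were narrower than those of HD3 alone. The direction of the number of regions and of the difference on chromosome Z changed without the fibroblast list, and not without HD3. The difference on chromosome Z also kept its direction without eRBC or aRBC. For the number of regions, leaving out a red cell list cannot test the direction. It removes circulating-only regions and turns some two-sided regions into culture-only regions. The culture-only share of one-sided regions thus rises by the rule, to 79.9% without eRBC and 77.9% without aRBC. Leaving out a cultured list lowers that share by the rule in the same way. Without the fibroblast list, HD3 alone was set against both red cell lists.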

How the data were processed

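The values were the authors' deposited peak lists, 1 for each of 4 cell types with 2 samples each. Whether and how the samples were combined was not given. For every peak the authors deposited a fold enrichment, a linear ratio to the caller's background, and a −log10 p and −log10 q value. Per the submitters' processing notes the build was GRCg6a and the tools were Bowtie2 2.3.5, SAMtools 1.9 and MACS2 2.1.2. Read filters and Tn5 offset correction are not given in the sources used here. Depth is unknown, and the number of regions sets the precision.

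Peaks overlapping by 1 bp or more were merged, and regions were placed by the lists present. Gaps run edge to edge. Positions are counted from 1. The end of a chromosome is its first base or the last peak end in any list, and the middle of a region gives its distance. Size classes were chromosomes 1 to 5, 6 to 10 and 11 to 33, with Z and W apart. Regions were named by the best worst rank in fold enrichment: 5 for each pair within a side, and the first for single lists and for pairs across sides. Members, classes and lists were chosen with earlier results of these data known. The gene table at hand is of another build (GRCg7b), so genes, promoters, motifs and marker genes are not analysed here. Merging was tested on simulated lists and gave the same regions as bedtools. Alternatives were stricter or equally long lists, fixed 200 bp intervals, 500 bp merging, each list left out, dense windows left out, −log10 p as strength and covered bases. Their use on runs and chromosome ends was chosen after seeing the data. Python 3.11.15, NumPy 2.4.6, pandas 2.3.3 and matplotlib 3.10.9 were used.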

Additional observations from a re-analysis of the deposited data

How the results depend on the processing

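No paired analysis was possible because the lists do not show single samples. Main values had Wilson intervals for shares, Newcombe intervals for differences of shares and order-statistic intervals for medians. Of 116 alternative values compared with the main ones, 51 stayed within the main interval, or within 1.5 times the main count of runs. Another 60 moved and 5 changed direction. The cause was not tested. For peaks reaching a −log10 q of 10, the culture-only share of one-sided regions was 45.7%, the excess of circulating-only regions in both lists of the side 26.5 points, the excess on chromosomes 11 to 33 18.3 points, the Z difference 0.792 points, the width ratio 1.27, the HD3 percentile difference −1.56, and runs 39 (culture-only) and 37 (circulating-only). With lists of equal length these were 58.6%, 15.5, 18.0, 0.690 and 1.13, with runs 116 and 18 and a gap ratio of 5.22. With 200 bp around summits the share was 66.4%, the gap ratio 5.30 and the width ratio 1.0 by construction. With 500 bp merging the share was 71.7%, the excess in both lists 15.1, that on chromosomes 11 to 33 18.8, the gap ratio 2.02, the width ratio 1.23, circulating-only runs 4, and percentile differences 16.5 (fibroblasts), 26.8 (eRBC) and 25.3 (aRBC).

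Without the fibroblast list the share was 32.4%, chromosomes 11 to 33 22.4, Z −6.78, the gap ratio 9.64, the width ratio 1.11, the aRBC percentile difference 37.5, chromosome ends 28.7, and runs 18 and 135. Without HD3 the values were 52.1%, 14.5 for chromosomes 11 to 33, 7.03 for Z, 3.06 for gaps, 1.42 for width, 32.8 (eRBC) and 25.7 (aRBC) for percentiles, and runs 128 and 46. Without eRBC they were 79.9%, 18.7, a width ratio of 1.06, 8.57 for the HD3 percentile, and runs 389 and 4. Without aRBC they were 77.9%, 12.6, a gap ratio of 3.63, a width ratio of 1.22, chromosome ends 11.7, and runs 363 and 1. Without dense windows the share was 68.0%, Z −1.45, the aRBC percentile difference 35.1 and circulating-only runs 3. Covered bases gave 1.87 for Z, and −log10 p gave 24.98 for the fibroblast percentile.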
